A study of Mus musculus with 4 samples.

Results

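Gzma, Gzmb, Prf1, Nkg7, Ncr1, Klrb1c, Klra8 and Klre1 encode granule proteins and surface receptors of cytotoxic lymphocytes. They were chosen by symbol, 8 of the 22005 gene symbols in the 4 deposited count tables, and all 8 stood in both lung tables, which share 19042 symbols. Cytotoxic lymphocytes, which are natural killer (NK) cells and CD8 T cells, kill a target cell by releasing granules onto it. Perforin (Prf1) makes pores in the target membrane, granzymes A and B (Gzma, Gzmb) are the proteases that enter, and Nkg7 is a membrane protein of the granules. NK cells choose targets by balancing activating and inhibitory receptors, many of them encoded in the NK gene complex, and the lung holds a resident and circulating pool of mature NK cells. Among the receptors, Ncr1 is the activating receptor NKp46, Klrb1c is the NK1.1 antigen of C57BL/6 mice, Klra8 is Ly49H, an activating receptor for a cytomegalovirus protein, and Klre1 is a C-type lectin-like receptor of NK cells.

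Gene expression was measured in 4 droplet single-cell RNA libraries from C57BL/6J mice, an inbred strain, with no treatment named in the labels. Lung and small intestine were dissociated mechanically and with enzymes, and each tissue gave 1 library of singlets (1 cell per barcode) and 1 of multiplets (clusters of several cells under 1 barcode). The labels do not name separate animals, so there was no spread between replicates to test against, and every interval below is a 95% interval that covers counting error only. Lung singlets comprised 6084 barcodes (median 7896 unique molecular identifiers, UMIs, which count captured transcripts) in 13 classes assigned by the authors, and lung multiplets 4729 barcodes (median 11934).

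The members lie on 5 chromosomes of the mouse build GRCm38.p6 (RefSeq): Gzma at chr13:113093824-113100981, Gzmb at chr14:56258836-56262334, Prf1 at chr10:61297751-61304684, Ncr1 at chr7:4337715-4345184, Nkg7 at chr7:43437138-43438246, and Klrb1c, Klre1 and Klra8 at chr6:128778485-128788641, chr6:129559365-129585828 and chr6:130115226-130129898. All 8 are protein-coding. Their promoters are shown because the genes share 1 cell class, and were read as the 250 bases before each transcript start listed by RefSeq, 11 windows for the 8 genes. For Prf1 and Klre1 these starts lie inside the gene span given above, as does 1 listed start each of Ncr1 and Klra8. The hexamer TGTGGT, the core letters bound by RUNX factors, was searched on both strands after the sequences had been looked at. It stood in at least 1 window of 7 of 8 members, and in 15.9% of the 27025 genes with such a window. Klra8 had none in its windows, and Klre1 had it in 1 of its 2. GGTGTGA, bound by T-box factors, stood before 1 member and 3.84% of all genes, and GGAAGT, an ETS core, before 2 members and 22.2% of all genes, with no overlap between these matches in the members. A match of letters is a description and does not show that a factor binds. In the stretches that follow, 5′ to 3′ on the strand of the gene, capitals mark TGTGGT or its reverse complement ACCACA, which begins the given number of bases before the start.
Gzma (50 bases before, minus strand, chr13:113101011-113101046): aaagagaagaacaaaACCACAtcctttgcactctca
Gzmb (34 bases before, minus strand, chr14:56262348-56262383): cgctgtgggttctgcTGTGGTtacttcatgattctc
Prf1 (130 bases before, plus strand, chr10:61297691-61297726): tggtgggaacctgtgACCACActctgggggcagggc
Klrb1c (89 bases before, minus strand, chr6:128788710-128788745): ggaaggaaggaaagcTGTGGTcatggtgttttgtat
Klre1 (229 bases before, plus strand, chr6:129577969-129578004): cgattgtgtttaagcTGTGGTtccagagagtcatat
The whole windows of 3 genes are printed to set a promoter with 2 RUNX matches (Ncr1) and one with a RUNX and a T-box match (Nkg7) beside one with none of the searched motifs (Klra8), with all 3 motifs in capitals.
Ncr1 (plus strand, chr7:4337465-4337714): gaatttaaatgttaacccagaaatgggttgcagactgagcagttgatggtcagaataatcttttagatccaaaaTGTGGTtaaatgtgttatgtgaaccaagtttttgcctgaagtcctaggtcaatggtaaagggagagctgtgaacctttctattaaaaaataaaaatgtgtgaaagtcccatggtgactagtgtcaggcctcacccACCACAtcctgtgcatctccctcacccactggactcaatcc
Nkg7 (plus strand, chr7:43436888-43437137): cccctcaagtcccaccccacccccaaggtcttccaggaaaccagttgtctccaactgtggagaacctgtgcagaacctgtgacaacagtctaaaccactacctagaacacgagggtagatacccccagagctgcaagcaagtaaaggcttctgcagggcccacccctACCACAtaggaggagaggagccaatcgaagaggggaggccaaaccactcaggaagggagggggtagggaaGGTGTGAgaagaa
Klra8 (minus strand, chr6:130129899-130130148): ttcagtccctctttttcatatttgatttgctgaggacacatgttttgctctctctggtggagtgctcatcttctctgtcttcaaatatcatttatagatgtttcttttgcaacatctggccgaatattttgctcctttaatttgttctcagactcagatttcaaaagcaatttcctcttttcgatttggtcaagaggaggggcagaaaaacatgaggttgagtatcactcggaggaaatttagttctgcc

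The class the authors labelled NK-cell held 172 singlets and the class T-cell 334. Defining markers fitted both names. Eomes, an NK transcription factor, was at 358 CPM (the UMIs of a gene scaled to a common total of 1e6 UMIs per class or library) in NK and 14.3 in T singlets, while Cd3e, part of the T-cell receptor complex, was at 2.86 CPM in NK and 372 in T singlets. Across the lists, 10 of 10 NK markers were more than 1.5-fold higher in NK and 14 of 14 T markers lower. The T-cell class also held RNA of innate and gamma-delta lymphocytes, with a gamma-delta list at 568 CPM (106 in NK) and Il1rl1 and Arg1, genes of group 2 innate lymphoid cells, at 76.1 and 38.03 CPM (1.43 and 0 in NK). The class the authors labelled Macrophage was mixed too. Of its singlets, 78.8% held 2 or more UMIs of a macrophage list, 95.8% of a monocyte, 37.1% of a dendritic and 22.3% of a neutrophil list. The sources used here do not say how the authors assigned classes, and the 8 genes may have entered that step, so the NK and T levels are a description. NK singlets were shallower (median 3459 UMIs against 5039.5). Scrublet, a doublet caller, marked 126 of 6084 lung singlets (2.07%), among them 8 NK and 17 T singlets. They were kept, and leaving them out changed no call.

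All 8 genes were highest in NK singlets, and in T singlets 7 of 8 were at or below 78.7 CPM, the exception being Nkg7 at 248. Each was more than 1.5-fold higher in NK than in T singlets, against 19.3% higher and 13.5% lower among the 4822 genes with at least 50 UMIs in NK, in T or in both. The median log2 NK to T ratio over those genes was 0.16. Composition scaling by TMM lowered every log2 ratio by 0.22, which gave 11.4% higher and 19.2% lower, and left all 8 genes above the limit.

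Among the granule genes, Gzma, a trypsin-like granzyme, was at 12607.5 CPM (12345.7 to 12873.6) in NK and 78.7 (66.6 to 92.4) in T singlets, 160-fold apart (136 to 190). Gzmb, the caspase-activating granzyme, was at 1495 CPM in NK and 25.4 in T, a ratio of 59.0 (44.2 to 80.5). Prf1 was at 1428 CPM in NK and 21.7 in T, a ratio of 65.9 (48.3 to 92.5). None of these 3 intervals overlapped between the classes. Nkg7 had the lowest ratio of the 6 that could be computed, with 3182 CPM in NK and 248 in T, 12.8-fold (11.6 to 14.2). Of all Nkg7 UMIs in lung singlets, 75.7% lay in the NK class and 16.0% in the T class. For the other 7 genes the NK class held 88.7% (Klre1) to 94.9% (Klra8), although it was 172 of 6084 barcodes.

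The receptors were also higher in NK than in T singlets, with the ratio of Klre1 below that of Gzma. Ncr1 had 589 UMIs in NK singlets (843 CPM) and 0 in the 334 T singlets, where a floor of 3 counts over the class allows 1.58 CPM and a UMI in 0.898% of T singlets (exact 95% limits, 1.95 CPM and 1.10%). Against that floor NK was at least 532-fold higher. Klra8 had 648 UMIs in NK (927 CPM) and also 0 in T, at least 585-fold higher against the same floor. Klrb1c was at 685 CPM in NK and had 4 UMIs in T (2.11 CPM), a ratio of 324 (126 to 1195). Klre1 was at 1080.3 CPM in NK and 10.04 in T, a ratio of 108 (68.4 to 180). Klra8 belongs to a cluster of near-identical Ly49 genes, so its UMIs may be shared with or lost to its paralogs.

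**Figure D1:**
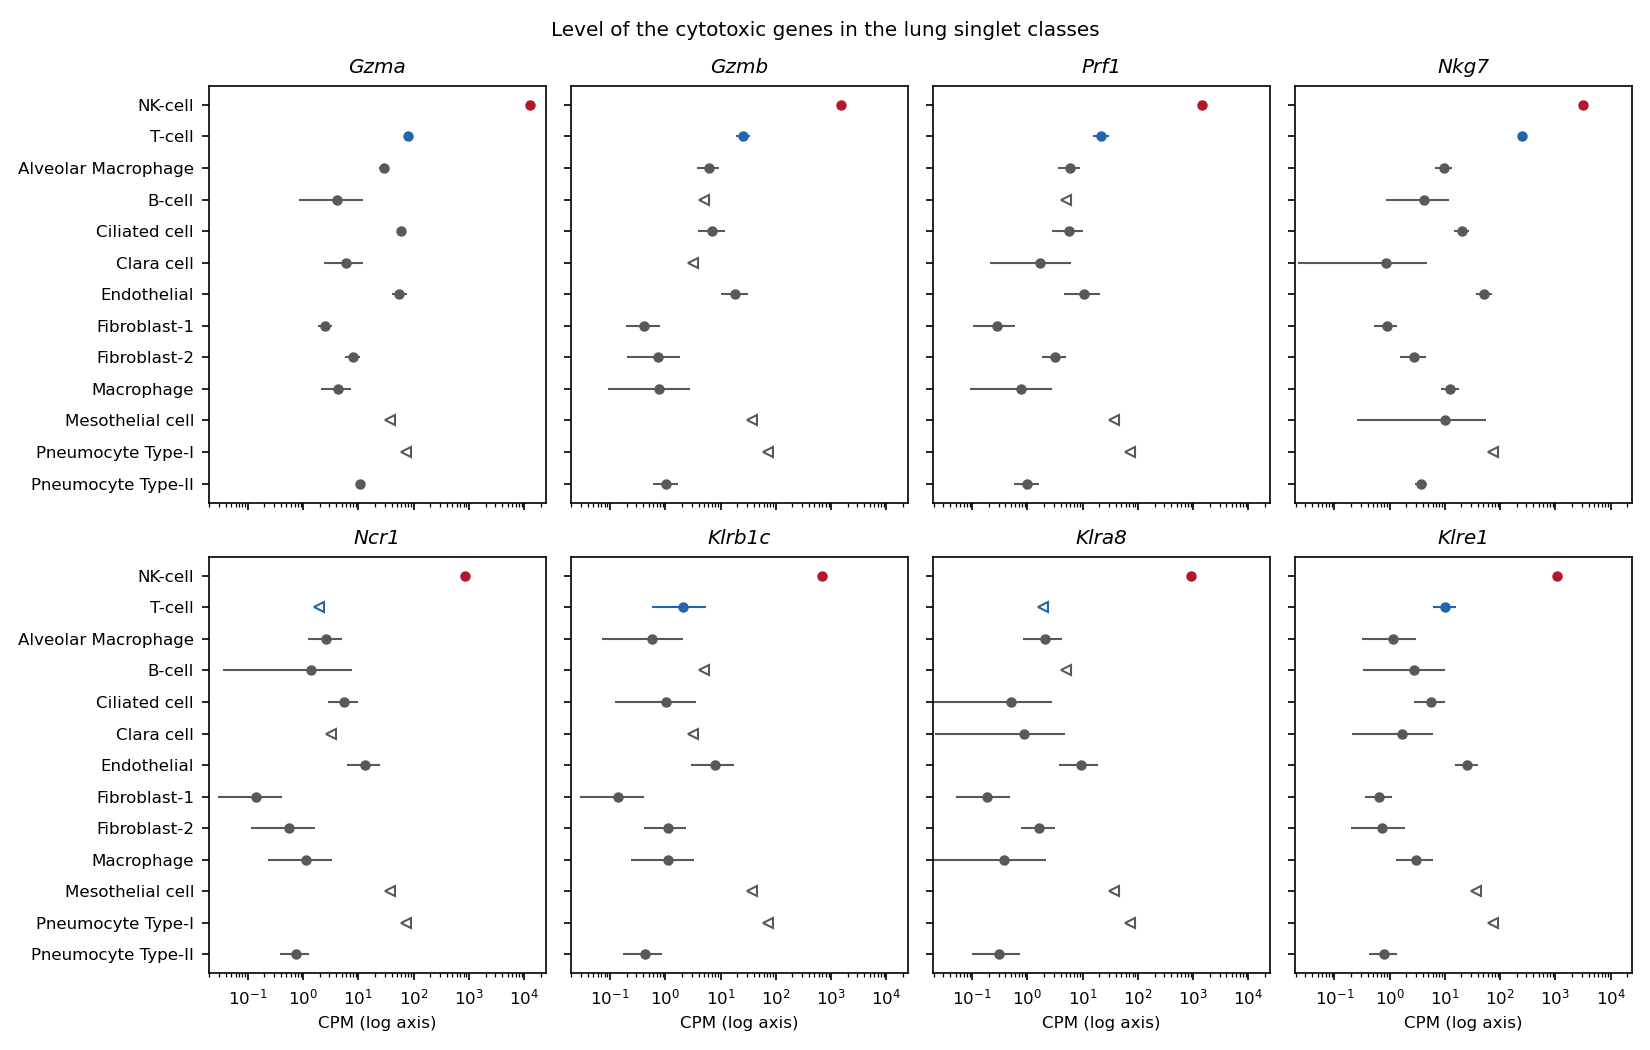
CPM (log axis) of each of the 8 genes in the 13 lung singlet classes, with 95% Poisson intervals; NK singlets are red, T singlets blue, and an open triangle marks the upper limit of a class with no UMI. NK singlets lie above every other class in all 8 panels, with Gzma at 12607.5 CPM in NK and 78.7 in T singlets.

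Within the NK class the genes were detected together. With every singlet thinned to 2000 UMIs, all 172 NK singlets held at least 2 of the 8 genes, 151 (87.8%) held 6 or more and 44 (25.6%) held all 8, with a median of 7. In T singlets the shares were 4.49% with 2 or more and 0 of 334 with 6 or more, and in the other 5578 singlets 98.4% held none. Gzma and Nkg7 were each found in 98.8% of thinned NK singlets, Prf1 in 91.9%, Klre1 in 86.6%, Ncr1 in 79.1%, Gzmb in 77.9%, Klrb1c in 77.3% and Klra8 in 55.8%. Without thinning the shares ran from 65.7% (Klra8) to 100% (Nkg7). Gzma ranged from 0 to 72 UMIs per thinned NK singlet, with a median of 27.5 and quartiles of 18 and 34.25.

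Klra8 differed from the other receptors in how it was spread over NK singlets. It had a mean of 2.11 UMIs per thinned NK singlet but no UMI in 76 of 172 (44.2%, 36.6 to 51.9), where a Poisson distribution of that mean would leave 12.1% without one. Klre1, with a mean of 2.25, was missing from 13.4% (8.67 to 19.4) against 10.5% by Poisson. Ncr1 and Klrb1c were also near their Poisson shares, at 20.9% against 16.7% and 22.7% against 20.4%. Klra8 was thus concentrated in part of the NK singlets, up to 12 UMIs in 1 thinned barcode. Other Ly49 genes were spread like it: Klra4 was missing from 49.4% (Poisson 17.3%), Klra9 from 43.6% (19.2%) and Klra7 from 54.1% (33.3%). Ly49 receptors are known to be expressed by subsets of NK cells. Klrd1 (CD94) and Klrk1 (NKG2D) were missing from 18.6% and 12.8%, against 11.8% and 7.44% by Poisson.

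The 113 NK singlets with a Klra8 UMI and the 59 without had similar depth, with medians of 3517 and 3374 UMIs. Their intervals overlapped for Prf1 (1406 CPM with Klra8, 1473 without), Nkg7 (3168 and 3211), Ncr1 (858 and 813), Klrb1c (671 and 715), Klre1 (1081 and 1079) and Gzmb (1470.1 and 1545). Gzma was at 12349.6 CPM (12032.3 to 12673.1) with Klra8 and 13121.3 (12660.9 to 13594.3) without, and those intervals overlap by a narrow margin. So NK singlets without Klra8 carried the other 7 genes at levels close to those with it.

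Gzmb also had many empty NK singlets for its mean, missing from 22.1% (16.1 to 29.0) where Poisson gives 4.48%. Prf1 exceeded its Poisson share by less (8.14%, 4.52 to 13.3, against 3.92%). Gzma and Nkg7 were each missing from 1.16% (0.141 to 4.14), where Poisson gives 0.116% for Nkg7 and less for Gzma. The variance of Gzmb was 3.79 times its mean over thinned NK singlets. It was 6.43 for Gzma, 3.38 for Klra8 and 1.03 to 1.72 for the other 5 genes. Over the 172 NK singlets, Spearman's rho of thinned counts was 0.39 for Gzma with Prf1, 0.35 for Gzma with Gzmb and 0.33 for Gzmb with Prf1. It was 0.19 to 0.29 for Nkg7 with these 3, and −0.02 to 0.21 for every pair that included a receptor. All points come from 1 library and the receptors have few UMIs per barcode, so these values are descriptive.

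**Figure D2:**
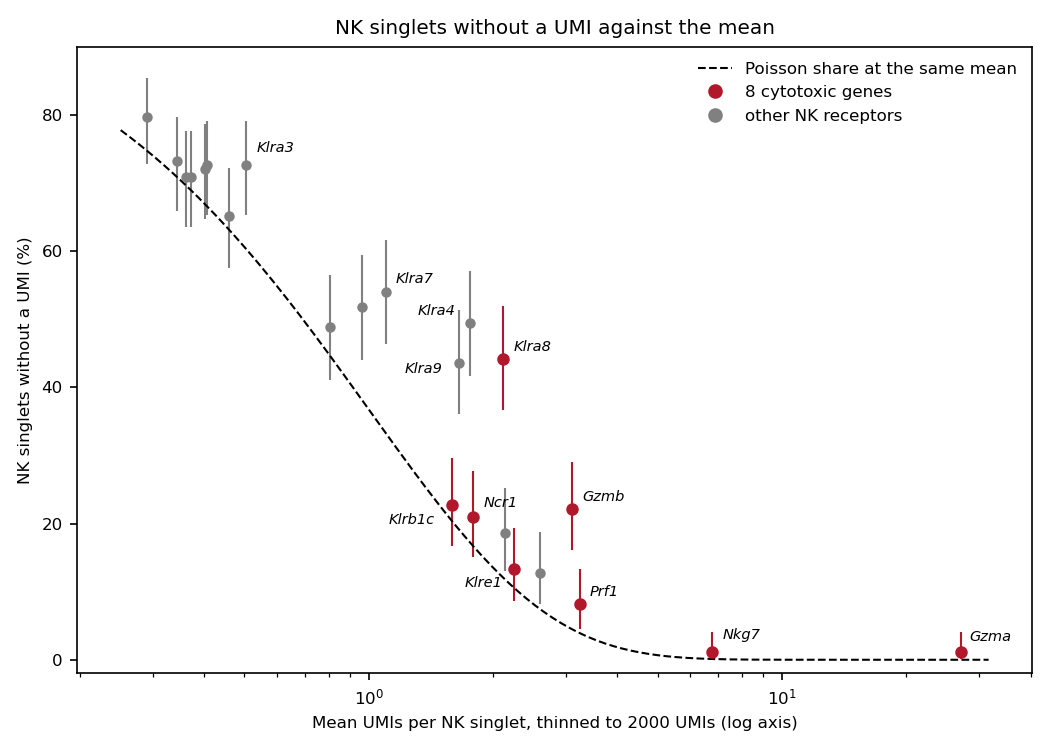
Share of 172 NK singlets without a UMI of each gene against its mean UMIs after thinning to 2000 UMIs (log axis), with exact binomial 95% intervals; red points are the 8 genes, grey points other NK receptors, and the dashed line is the Poisson share. Klra8 (44.2%), Klra4, Klra9 and Klra7 lie above the line, as do Gzmb (22.1%) and, by less, Prf1, Gzma and Nkg7. Klre1, Ncr1 and Klrb1c have intervals that reach it.

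In T singlets Nkg7 was spread over many barcodes and Gzma sat in few, while Ncr1 and Klra8 had no UMI. Nkg7 was found in 107 of 334 T singlets (32.0%) and Prf1 in 37 (11.1%), with 41 Prf1 UMIs in all. Gzma was found in 14 T singlets, and 97.3% of its 149 UMIs lay in 10 of them. Gzmb was also found in 14. As background, fibroblasts of the Fibroblast-1 class, which should lack these genes, had a Nkg7 UMI in 0.641% and a Gzma UMI in 1.75% of 2964 barcodes at a median of 6562 UMIs.

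Sorting T singlets by Cd4 and Cd8 UMIs separated Nkg7. Of the 101 with a Cd8a or Cd8b1 UMI and no Cd4 UMI, 76 (75.2%, 65.7 to 83.3) held Nkg7, at 548 CPM (492 to 610). Of the 57 with Cd4 and no Cd8 UMI, 6 (10.5%, 3.96 to 21.5) did, at 92.3 CPM (61.8 to 133). The 173 with neither held it in 13.9%, at 98.7 CPM. Median depth was 5678, 4926 and 4922 UMIs, and after thinning the Nkg7 shares were 48.5%, 7.02% and 10.98%. Prf1 was found in 23.8% of the Cd8 group and 8.77% of the Cd4 group, with intervals that overlap (15.9 to 33.3 and 2.91 to 19.3). The Cd8 group held 143 of the 149 Gzma UMIs, in 8 barcodes, and no UMI of Ncr1, Klrb1c or Klra8.

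**Figure D3:**
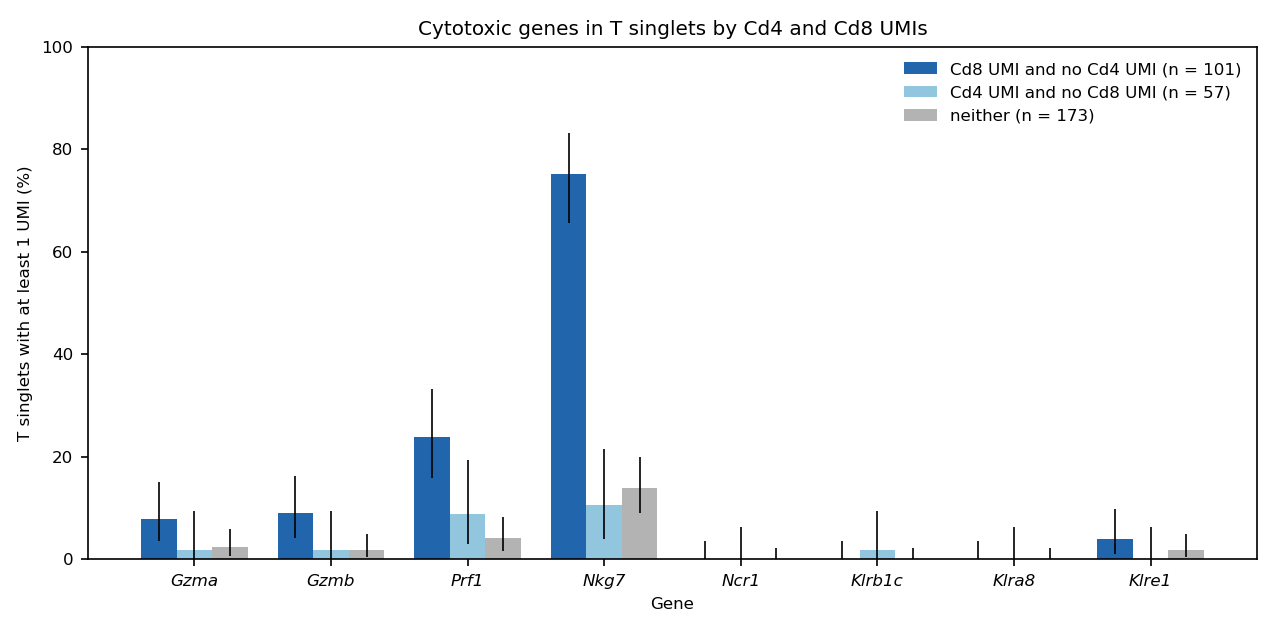
Share of T singlets with at least 1 UMI of each gene, in 101 singlets with a Cd8 UMI only, 57 with a Cd4 UMI only and 173 with neither, with exact binomial 95% intervals. Nkg7 reaches 75.2% in the Cd8 group against 10.5% and 13.9%, and Ncr1 and Klra8 have no UMI in any of the groups shown.

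In the T class 12 singlets held 3 or more of the 8 genes, and these carried 142 of 149 Gzma, 35 of 48 Gzmb and 150 of 470 Nkg7 UMIs of the class. All 12 had a Cd3 UMI, 11 had a Cd8 UMI, and 1 was marked by Scrublet. Their T marker list stood at 7472 CPM against 5435 in the other 322 T singlets and 671 in NK singlets. Their NK marker list stood at 1998 CPM, between the 481 of the other T singlets and the 8690 of NK singlets, and they had 0 UMIs of Ncr1 and Klra8. Without them Gzma in T singlets fell from 78.7 to 3.86 CPM, Gzmb from 25.4 to 7.17 and Nkg7 from 248 to 177. Gzma, Gzmb and Klre1 in the T class thus rest on these few barcodes, while most Nkg7 and Prf1 UMIs lie outside them.

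Beyond the NK and T classes, the 8 genes gave 1150 UMIs in 5578 singlets, and 73.0% of these lay in 20 barcodes with 3 or more of the genes. The order of classes below NK was T-cell, Ciliated cell, Endothelial (55.2 CPM), Alveolar Macrophage (29.3) and Pneumocyte Type-II (10.6) for Gzma, where the intervals of the first 3 overlapped. T-cell also came next for Gzmb and Prf1, with intervals (18.7 to 33.6 and 15.5 to 29.4 CPM) that overlap those of Endothelial (10.1 to 30.9 and 4.54 to 20.7). For Nkg7, T-cell stood apart from Endothelial (51.3 CPM, 36.5 to 70.1). The 20 barcodes were spread over 7 classes (5 of Pneumocyte Type-II, 4 of Fibroblast-2, 3 each of Alveolar Macrophage and Ciliated cell, 2 each of Endothelial and Macrophage, 1 of Fibroblast-1). Their median depth was 14004 UMIs against 8391.5 in the other 5558, and Scrublet marked 4 of them. For example, Gzma in the ciliated class was at 59.7 CPM (49.4 to 71.5), an interval that overlaps that of T singlets, but 113 of its 118 UMIs lay in 3 barcodes and 1 barcode held 60. Without the 3 barcodes it was at 2.58 CPM. Endothelial singlets had the highest level after NK of Ncr1 (13.2 CPM), Klrb1c (7.89), Klra8 (9.21) and Klre1 (24.99), with Ncr1 and Klre1 in 2 barcodes each and Klra8 in 1. Whether such barcodes hold 2 cells was not tested beyond the Scrublet marks.

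The remaining UMIs were thin and differed between classes. Outside the 20 barcodes, Gzma in Fibroblast-1, the largest class, had 51 UMIs in 51 barcodes. Nkg7 UMIs there were 27.1% (17.2 to 39.1) of the Nkg7 and Gzma UMIs together, an interval that holds the 20.2% (19.4 to 20.9) of NK singlets. Klre1 was 19.05% (10.2 to 30.9) of the Klre1 and Gzma sum there, above the 7.89% (7.36 to 8.45) of NK singlets. In the Macrophage class Nkg7 was 78.1% (60.03 to 90.7), with 25 Nkg7 and 7 Gzma UMIs. Alveolar Macrophage was alike at 73.9% (51.6 to 89.8), with 17 Nkg7 and 6 Gzma UMIs. Over all 283 macrophage-class singlets Nkg7 was found in 15 (5.30%, median 8574 UMIs), and in 2.47% after thinning against 0.202% of Fibroblast-1. After thinning it was also found in 3.36% of Endothelial, 0.947% of Fibroblast-2 and 0.881% of Alveolar Macrophage singlets. The Macrophage class also held the receptor gene Klrd1 in 21.6% of its barcodes, at 90.7 CPM, close to the 91.9 CPM of T singlets. So Nkg7 stood above the Fibroblast-1 level in macrophage-class singlets, though not in that class alone. Gzma, found in 2.83% of macrophage-class singlets (1.23 to 5.49), had an interval that overlaps that of Fibroblast-1.

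Other genes of the cytotoxic programme were read from fixed lists. Of 18 further NK receptors with enough UMIs, 16 exceeded the limit in NK singlets and 2 fell below it, and the median of their log2 ratios was 5.13 beside 0.16 for all genes. Klra4 was 527-fold higher (836 against 1.58 CPM), Klrk1, an activating receptor, 15.2-fold and Klrd1 11.2-fold. The 2 below it, Cd226 (52.9 against 88.7 CPM) and Cd96 (34.3 against 54.4 CPM), encode paired receptors for nectin-family ligands. All 10 cytokine and chemokine genes with enough UMIs were higher, with a median log2 ratio of 4.31, among them Ccl4 (3524 against 10.04 CPM), Xcl1 (479 against 13.2) and Ifng (522 against 26.9). Of 8 other granule genes, 6 were higher and none lower (median log2 ratio 2.85), such as the granzyme B inhibitor Serpinb9 (25.1-fold) and Fasl (11.5-fold). Srgn, the granule proteoglycan serglycin (797 against 734 CPM), and Lamp1 (182 against 170 CPM) stayed within the limit.

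Signalling and release genes were shared more. Of 8 receptor adaptors (median log2 ratio 0.51), 4 were higher in NK, led by Tyrobp (3109 against 20.6 CPM) and Fcer1g (2660.0 against 28.5 CPM), while Cd247, Zap70, Lck and Hcst were within 1.5-fold. Neither release gene with enough UMIs passed the limit: Lyst was at 75.8 and 66.6 CPM and Coro1a at 680 and 768 CPM in NK and T. Of 12 regulators (median 1.23), 8 were higher in NK and 1 lower. Tbx21 (T-bet) was 28.9-fold and Eomes 25.1-fold higher, Runx3 1.85-fold (239 against 129 CPM), Ets1 within the limit (529 against 741 CPM), and Gata3 lower (47.2 against 136 CPM).

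The genes whose levels over 11 lung classes of 20 or more singlets tracked the mean of the 8 most closely, out of 12468 candidates, were Klra3, Eomes, Klrc2, Klrc1, Fasl, Xcl1, Klra4, Klrb1f, Ptpn4 and Klri2. Pearson's r of log2(CPM + 1) ran from 0.97 (Klra3) to 0.93 (Klri2). The 8 themselves had 0.93 (Nkg7) to 0.98 (Gzma), but each is part of that mean, which raises its r. These values describe 11 classes of 1 library, in which the NK class alone sets most of the range.

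In lung multiplets all 8 genes were less abundant than in singlets, against 13.8% of 15098 genes that were lower past 1.5-fold and 15.9% that were higher. Gzma was at 37.4 CPM in multiplets and 168 in singlets, a ratio of 0.223 (0.213 to 0.233). Gzmb was at 5.25 and 20.7 CPM (0.253), Prf1 at 4.83 and 19.8 (0.244) and Nkg7 at 22.8 and 51.9 CPM (0.439, 0.413 to 0.467). The receptors lay in the same range: Ncr1 at 2.96 and 11.3 CPM (0.261), Klrb1c at 2.40 and 9.04 (0.265), Klra8 at 2.84 and 12.1 (0.235) and Klre1 at 4.99 and 15.02 (0.332). Nkg7 was reduced least, and its interval did not overlap that of any other of the 8 genes. With each barcode weighted equally the ratios were 0.0903 (Klra8) to 0.191 (Nkg7), and with barcodes thinned to 2000 UMIs 0.0803 (Prf1) to 0.202 (Nkg7). In bulk sums like these, fewer NK cells and less RNA per NK cell cannot be told apart.

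Depth moved with this result. No multiplet had under 5006 UMIs, and only 31 of the 172 NK singlets were that deep. Against the 4770 singlets with at least 5006 UMIs, 1 of 8 genes was lower past the limit (Gzmb, 0.655, 0.566 to 0.757), where 13.6% of 15024 genes were lower. Gzma stood at 0.714 (0.676 to 0.755), Prf1 at 0.854 and Ncr1 at 0.851. Klrb1c (1.04), Klra8 (1.05) and Klre1 (1.02) had intervals that include 1, and Nkg7 was at 1.13 (1.04 to 1.22). These singlets were still shallower than multiplets, with a median of 9518.5 against 11934 UMIs. Against them, Gzma and Gzmb were thus the 2 genes whose intervals lay below 1, and Nkg7 the 1 above it.

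**Figure D4:**
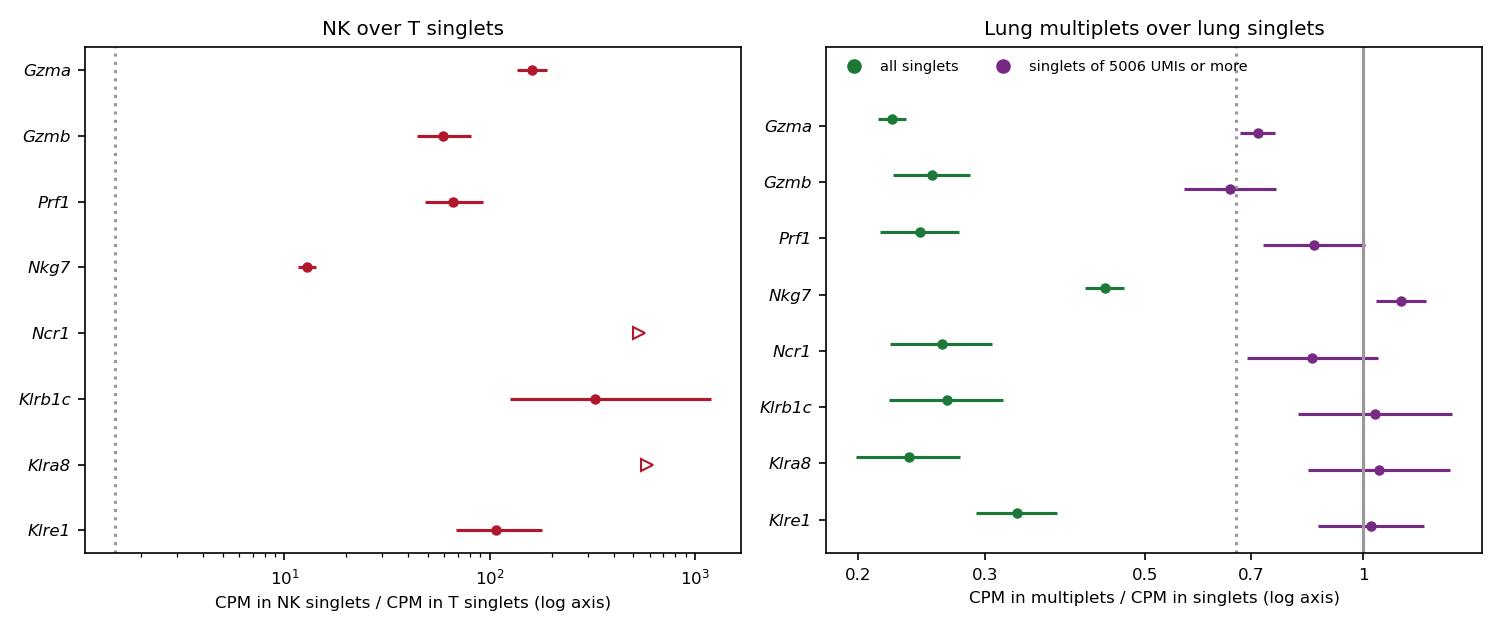
Left, CPM in NK singlets over CPM in T singlets for each gene with 95% intervals (log axis), where open triangles are lower bounds for genes with no UMI in T singlets and the dotted line is the 1.5-fold limit. Right, CPM in lung multiplets over CPM in all singlets (green, 0.223 to 0.439) and in singlets of 5006 UMIs or more (purple, 0.655 to 1.13), with a solid line at 1 and a dotted line at the limit.

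Few multiplets carried the programme. At 2000 UMIs per barcode, 71 of 4729 multiplets (1.501%, 1.17 to 1.89) held 2 or more of the 8 genes, against 199 of 6084 singlets (3.27%, 2.84 to 3.75) and 47 of 4770 deep singlets (0.985%, 0.725 to 1.31). Without thinning, 64 multiplets (1.35%, 1.04 to 1.72) held 5 or more and 24 held all 8. These 64 carried 78.8% of all UMIs of the 8 genes in the library, at a median depth of 17556 UMIs. A further 278 multiplets held exactly 1 of the genes and carried 10.1% of the UMIs. Gzma was found in 135 multiplets, with 106 UMIs in the highest, and 33.5% of its 2482 UMIs lay in 10 barcodes.

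The 71 multiplets with 2 or more of the genes differed from the other 4658 in the markers they carried beside them. T markers (at least 2 thinned UMIs of the list) were found in 49.3% (37.2 to 61.4) against 7.21%. NK singlets themselves held 2 or more unthinned UMIs of the T list in 66.9%, mainly from Trbc1 and Trbc2, so the list also reads NK RNA. The 71 also more often held macrophage markers (35.2% against 14.1%), neutrophil markers (25.4% against 8.52%) and dendritic markers (21.1% against 7.66%). Platelet markers were found in 14.1% against 1.91%. Of the structural lists, fibroblast markers were found in 4.23% (0.879 to 11.9) against 28.6% and type I pneumocyte markers in 1.41% against 22.2%. Endothelial markers were at 7.04% (2.33 to 15.7) against 13.5% (12.5 to 14.5), type II pneumocyte markers at 45.1% (33.2 to 57.3) against 54.9% (53.5 to 56.4), and club-cell markers at 66.2% (53.99 to 77.0) against 62.8%, each with intervals that overlap. Median depth was 14725 against 11895 UMIs.

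A second measure came from a mixture fit of the 13 class profiles to each multiplet on 520 class genes without the 8. NK was called (weight of at least 0.15) in 76 multiplets (1.61%, 1.27 to 2.01). The same fit on singlets, with profiles made from singlets left out of the fit, called NK in 213 of 6084 (3.50%), 171 of the 172 NK singlets and 42 of other classes. Of the 76 NK-called multiplets only 37 (48.7%, 37.0 to 60.4) held a Gzma UMI, against 98.8% of NK singlets. The estimated NK part had a median of 2756 UMIs per called multiplet.

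The 2 kinds of NK-called multiplet had different genes. In the 37 with Gzma, Nkg7 was found in 100%, Klre1 in 94.6%, Ncr1 in 89.2%, Prf1 in 86.5%, Gzmb in 81.1%, Klrb1c in 78.4% and Klra8 in 56.8%, each at or below its share in NK singlets without thinning. In the 39 without Gzma the other 7 genes were found in 7.69% (Prf1, Klra8) to 43.6% (Nkg7). Eomes was found in 59.5% of the first kind and 7.69% of the second, and Klra4 in 43.2% and 0%. Ccl5, a chemokine of NK, T and dendritic cells, was high in both (4553 and 5078 CPM). Fscn1, a gene of mature dendritic cells, had 14 UMIs in the first kind and 196 in the second, found in 6 of its 39 barcodes. Genes of the dendritic list read here went both ways. Flt3 had 4 and 26 UMIs and Ccr7 78 and 152, but Cd209a had 45 and 8. Ccr7 was found in 37.8% of the first kind and 43.6% of the second. Tyrobp, which macrophage-class singlets also hold (2728 CPM), was found in 89.7% of the second kind. Which genes carried the calls without Gzma was not tested. In the other direction, 98 multiplets held Gzma with no NK call, and the other 7 genes were found in 18.4% (Klra8) to 30.6% (Nkg7) of them.

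**Figure D5:**
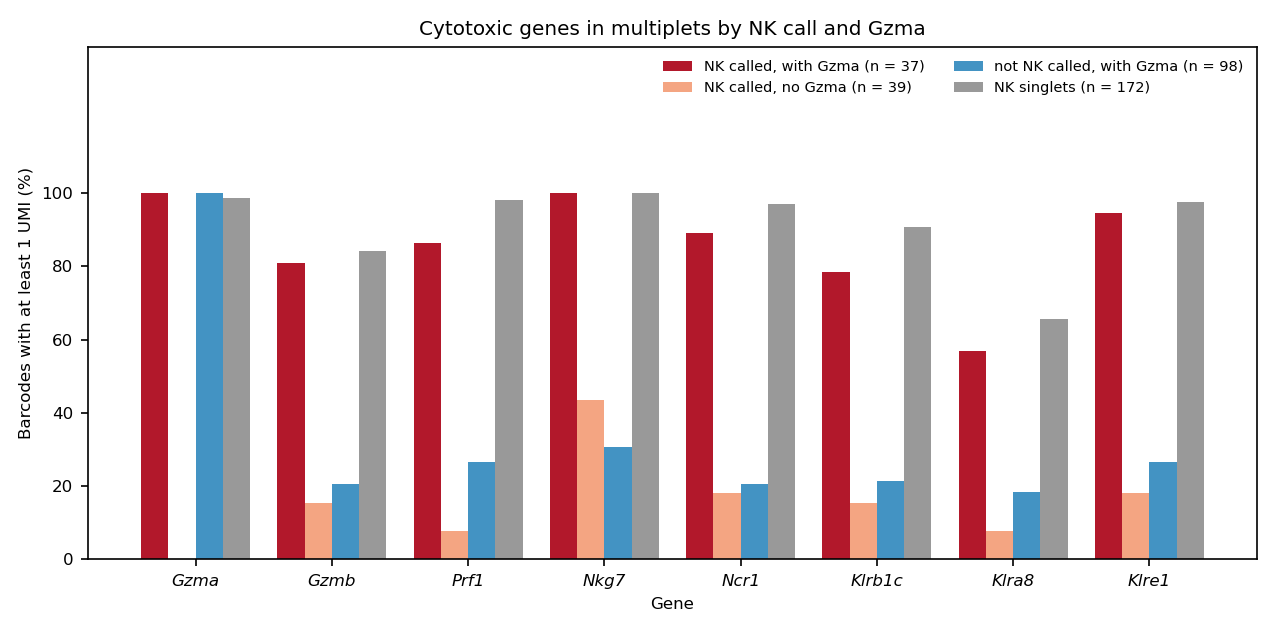
Share of barcodes with at least 1 UMI of each gene (not thinned) in NK-called multiplets with a Gzma UMI (37), NK-called multiplets without (39), multiplets with Gzma and no NK call (98) and NK singlets (172). The first group is close to NK singlets in most genes, and the second reaches 43.6% for Nkg7 and 7.69% for Prf1.

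The classes called beside NK were mostly immune. The Macrophage class also held monocyte, dendritic and neutrophil RNA, so its call does not name macrophages alone. Of the 76, 37 also had a Macrophage call, where 22.97 were expected if partners were drawn in proportion to each class's number of pairs (ratio 1.61, 1.13 to 2.22), 29 a T-cell call (11.3 expected, 2.57, 1.72 to 3.68) and 13 a B-cell call (6.17 expected, 2.11, 1.12 to 3.60). Alveolar Macrophage was called in 11 (13.6 expected, 0.811, 0.405 to 1.45). Fibroblast-1 was called in 3 (15.4 expected, 0.195, 0.0403 to 0.570) and Fibroblast-2 in 1 (10.2 expected). NK was called alone in 6. With the 8 genes kept in the fit, 52 multiplets were called NK, and a B-cell call stood in 5 of them (9.62%) against 17.1% of the 76, a Macrophage call in 21 and a T-cell call in 21. These ratios include the 39 calls without Gzma, whose NK content was not tested. Singlets fitted the same way gave 29 pairs of NK with T-cell and 12 with Macrophage out of 6084, which is the level of such pairs outside the multiplet library. Multiplets gave 29 and 37 out of 4729, so the number of NK with T-cell pairs was the same in both libraries.

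The partners differed in how often Gzma was present. It was found in 10 of 11 NK-called multiplets with Alveolar Macrophage, 15 of 37 with Macrophage, 13 of 29 with T-cell and 4 of 13 with B-cell. Among the 37 with Gzma, Macrophage was called in 40.5% (24.8 to 57.9), T-cell in 35.1% (20.2 to 52.5), Alveolar Macrophage in 27.0% (13.8 to 44.1), Endothelial in 10.8% and Fibroblast-1 in 5.41%. Over all multiplets these calls stood in 22.4%, 6.79%, 19.8%, 12.2% and 24.6%, in the same order. The weight of 1 NK cell depends on its partner's depth: 1 NK and 1 Pneumocyte Type-II singlet of median depth (3459 and 16009 UMIs) give NK a weight of 0.178, and 1 NK with 1 T-cell singlet 0.407. Pneumocyte Type-II was called in 0 of the 76 and in 16 of the 98 multiplets with Gzma and no NK call (16.3%, 9.63 to 25.2). That interval holds the 19.9% of all multiplets with this call.

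The fit predicted more UMIs of the 8 genes than were seen. Observed over predicted was 0.407 (0.391 to 0.423) for Gzma, 0.429 for Gzmb, 0.422 for Prf1 and Klra8, 0.436 for Ncr1, 0.466 for Klrb1c, 0.526 for Klre1 and 0.660 (0.627 to 0.694) for Nkg7. NK weights supplied 84.5% of the predicted Gzma and 56.8% of the predicted Nkg7. With the 8 genes kept in the fit, NK was called in 52 multiplets, 37 of them with Gzma, and the ratios were 0.555 (Gzma) to 0.800 (Nkg7), still below 1 for all 8. The 39 calls without Gzma enter these predictions.

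Nkg7 without Gzma was found mostly in multiplets with a T-cell call, while a Macrophage call was about as frequent with Gzma as without it. Of 193 multiplets with Nkg7 and no Gzma, 123 (63.7%) had a T-cell call, 107 a Macrophage call and 17 an NK call. Over all multiplets 6.79% had a T-cell and 22.4% a Macrophage call. Of 67 with both genes, 19 (28.4%) had a T-cell call, 37 a Macrophage call and 37 an NK call. Among singlets, 1.16% of NK singlets with Nkg7 lacked Gzma, against 92.5% of T singlets with Nkg7. In the 292 multiplets called T and not NK, Nkg7 was found in 40.4% (34.7 to 46.3), Prf1 in 11.3% and Gzma in 2.74%, beside 32.0%, 11.1% and 4.19% in T singlets. Those multiplets were deeper (median 13883 against 5039.5 UMIs). After thinning Nkg7 was found in 17.8% against 21.9%, Prf1 in 1.37% against 4.49% and Gzma in 1.71% against 2.99%. The order thus turned for Nkg7, while without thinning Prf1 had been about level and Gzma already lower in the multiplets.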

How the data were processed

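The authors deposited, per library, unnormalised UMI counts (gene symbols by barcodes) and, for lung singlets, the class of each barcode. The submitters' processing notes list Cell Ranger 4.0.0 as a tool and mm10 as genome build, with no further settings. All 6084 singlet and 4729 multiplet barcodes with counts carried the authors' passing flag, and the other barcodes of the 8410 and 8630 listed were not analysed here. The 8 genes, the gene lists and the settings were chosen with earlier results of these data known. Genes named besides the 8 are members of those lists, the 10 genes most like the 8 over the classes, and, chosen after their values were seen, Fscn1.

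UMIs were summed per class or library and divided by the sum of all UMIs to give CPM. Ratios have exact conditional intervals, sums Poisson and shares Clopper-Pearson intervals at 95%. A zero was set to a floor of 3 counts over the class. With 1 library per group there was no test, and higher or lower means past 1.5-fold among genes with at least 50 UMIs in at least 1 of the 2 compared groups. Shares across depths used barcodes thinned to 2000 UMIs (no barcode was shallower). Multiplets were fitted as Poisson mixtures of the class profiles on 520 genes (40 per class, the 8 left out, 300 iterations). The steps were tested on simulated data. Scrublet ran in scanpy 1.11.5 and TMM factors came from edgeR 4.0.16. Lung libraries shared 2 barcodes, which held 0 UMIs of the 8 genes. Promoters are RefSeq's, on GRCm38.p6, and 8 of 8 genes matched.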

Additional observations from a re-analysis of the deposited data

How the results depend on the processing

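All 8 genes stayed higher in NK than in T singlets under the 11 alternatives tried, including equal weights per barcode, thinning, a depth window, 2-fold and other count limits and other scalings. The size did depend on few T barcodes: without the 10 barcodes with most UMIs in each class the NK to T ratio was 5372 for Gzma and 568 for Gzmb. Without the 12 T singlets with 3 or more of the genes, an alternative chosen after seeing the data, the ratios were 3265 and 208. All 8 genes stayed lower in multiplets under 10 of 11 alternatives, with lower ratios by equal weights (0.0903 to 0.191) and by thinning (0.0803 to 0.202). The exception was the set of singlets at least as deep as the shallowest multiplet, where 1 gene was lower and Nkg7 (1.13), Klrb1c (1.04), Klra8 (1.05) and Klre1 (1.02) turned to slightly above 1. The share of multiplets with 2 or more of the genes was 1.02% at 1000 UMIs, 2.81% without thinning and 1.29% with another random draw, and 0.930% held 3 or more. NK was called in 45 multiplets at a weight of 0.25 and in 37 where a Gzma UMI was required as well, the latter chosen after seeing the data. The other 5 settings gave 52 to 95. The cause of these shifts was not tested. No paired analysis was possible because the labels give 1 library per group and no shared replicate numbers.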

Other observations

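In the small intestine, none of the 8 genes stood in the singlet table and 1, Gzma, stood in the multiplet table, with 3 UMIs in 3 of 3671 multiplets. That is no more than the floor of 3 counts used for a zero.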
